A study of Mus musculus with 8 samples.

Results

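Inflammasome genes in sorted fractions of tumour neutrophils were examined as 10 genes: the sensors Nlrp3, Nlrc4, Naip5 and Aim2, the adaptor Pycard, the inflammatory caspases Casp1 and Casp4, the gasdermins Gsdmd and Gsdme, and the cytokine gene Il18. They were chosen by name, 10 of the 54532 rows of the count table, and all 10 were among the 14051 genes that passed the filter on low counts. Cells of 2208L, a mouse mammary tumour line, had been grown in the fat pad of Balb/c mice, which received no treatment according to the labels. Tumours were dissociated at a diameter of 1 cm, and neutrophils were sorted by flow cytometry into ICAM1high and ICAM1low fractions. ICAM1 (CD54) is a surface molecule to which leukocyte integrins bind. There were 4 libraries of each fraction, each from 100 ng of total RNA. The labels give no age, sex or further gating markers. They call the replicates biological but do not tie them to separate mice, and the p-values rest on the spread among these samples.

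Inflammasomes are cytosolic complexes that assemble when a sensor meets a microbial or danger signal. NLRP3 responds to disturbed ion balance and membrane damage, AIM2 binds cytosolic double-stranded DNA, and NAIP proteins bind bacterial flagellin or secretion-system proteins and hand the signal to NLRC4. The adaptor ASC, encoded by Pycard, links sensors to caspase-1, which matures interleukin 1 beta and interleukin 18 and cuts gasdermin D into a pore-forming fragment. Mouse caspase-11, encoded by Casp4, responds to cytosolic lipopolysaccharide and also cuts gasdermin D. Gasdermin E is a related pore-forming protein. In neutrophils the pathway is known for cytokine release that often occurs without prompt lysis, and for a part in extracellular trap formation.

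Total counts ran from 10328575 to 22751975 per library, so 3 counts equalled 0.123 to 0.229 CPM. CPM are counts brought to a common library size, here with libraries scaled by TMM, the trimmed mean of M-values. The scaling matters, because the median log2 fold change of all genes tested, ICAM1high over ICAM1low, was 0.08 with TMM and 0.76 with library totals alone, a shift of 0.68. Markers of macrophages moved with the fractions: 11 of 12 were higher in ICAM1high (Cd68 was not called), none was at 0, and their summed level was 10559 to 17264 CPM in ICAM1high against 1221 to 1853 in ICAM1low. All 12 neutrophil markers were lower in ICAM1high, with sums of 7802 to 10572 CPM against 35670 to 73354, and remained detected there. Epithelial markers summed to 111 to 163 CPM against 258 to 459, with Krt5 at 0 in ICAM1high, and 3 of the 5 tested were lower. Dendritic cell markers summed to 7.39 to 14.7 CPM against 3.85 to 9.90 (Xcr1 at 0 in ICAM1low), and Cd209a had the smallest adjusted p of the 4 tested, 0.0734 by edgeR. Lymphocyte markers summed to 5.83 to 24.7 CPM against 13.5 to 21.9, with Klrb1c at 0 in ICAM1low, and Cd3d was lower of 2 tested. Stromal and endothelial markers summed to 72.8 to 135 CPM against 49.5 to 74.1, and 2 of 6 were higher. In bulk samples, fewer cells of a type and less RNA per cell cannot be told apart, and the part of these markers in the results was not tested. ICAM1high replicate 1 and ICAM1low replicate 4 stood apart: their chi-square per degree of freedom against the other libraries of the fraction was 93.4 to 107 and 98.3 to 212, beside 12.4 to 20.6 and 24.2 to 58.8 among the rest.

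The inflammasome genes did not move together. Nlrc4, Naip5 and Pycard were higher in the ICAM1high libraries, Nlrp3, Casp1, Casp4, Gsdmd, Gsdme and Il18 were lower, and Aim2 was not called. These were 3 genes higher and 6 lower at an adjusted p under 0.05 by edgeR's quasi-likelihood test with Benjamini-Hochberg adjustment. Over all genes tested, 42.1% were called, 22.6% higher and 19.6% lower. The fractions did not overlap for 8 of the 10 genes, beside 41.5% of all genes. The median log2 fold change of the 10 genes was -0.68. With library totals alone, 4 genes were higher and 2 lower, beside 48.5% and 5.97% of all genes, and the median was 0.01. Under that scaling Nlrc4, Naip5 and Pycard remained higher and Gsdme and Il18 remained lower, so the calls of these 5 held under both scalings. Nlrp3 (-0.38) and Casp4 (-0.35) kept their direction but were no longer called. With both ICAM1high replicate 1 and ICAM1low replicate 4 left out, the count was again 3 higher and 6 lower.

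**Figure D1:**
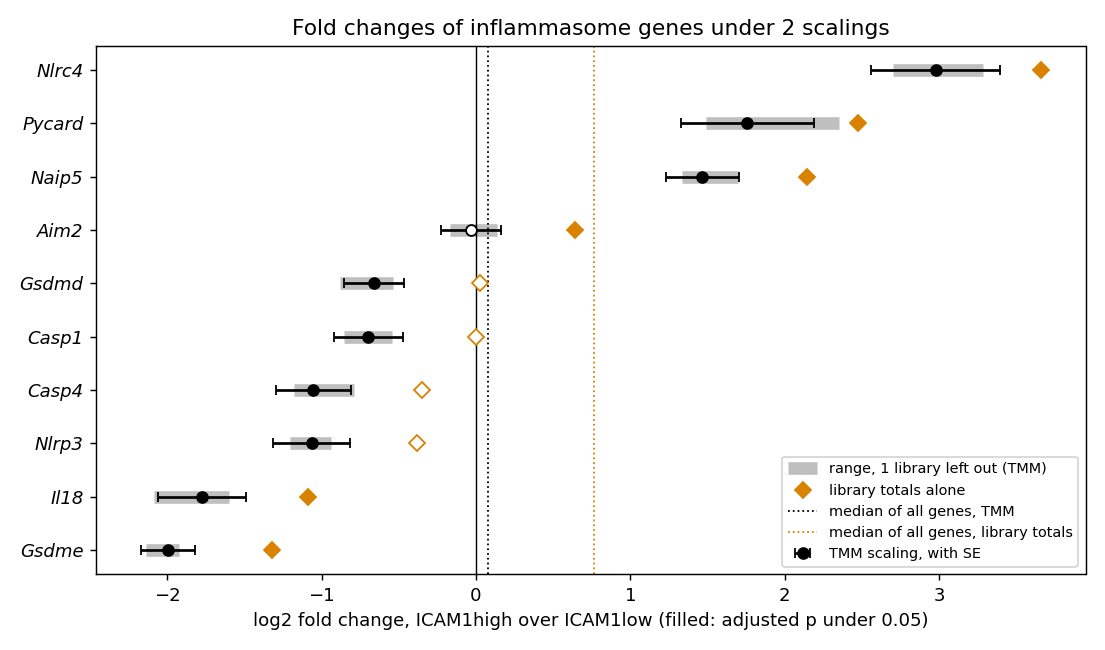
Log2 fold change of each of the 10 genes, ICAM1high over ICAM1low, with TMM scaling (circles, with standard error) and library totals alone (diamonds), filled where the adjusted p was under 0.05. Grey bands are the range with 1 library left out and dotted lines the medians of all genes. Nlrc4, Naip5 and Pycard lie to the right of 0 and Gsdme and Il18 to the left with both scalings, while Casp1 and Gsdmd reach about 0 with library totals.

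Nlrc4, which builds the inflammasome that serves the NAIP receptors, had the most positive fold change of the 10 (17:74425438-74459142 of mm10, minus strand). Its level was 9.87, 11.6, 15.9 and 16.2 CPM in the ICAM1high libraries and 2.42, 1.10, 2.65 and 0.62 CPM in the ICAM1low libraries. Every ICAM1high library lay above every ICAM1low library, and the lowest ICAM1low library held 10 counts. The mean was 13.4 ± 3.17 CPM (SD, n = 4) against 1.70 ± 0.989 CPM, or 2.98 higher on the log2 scale (SE 0.42, adjusted p = 0.000378 by edgeR). A pseudogene on the same strand within Nlrc4, CT033749.1, held 4.30% as many counts.

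Naip5, a receptor for flagellin, rose as well (13:100211739-100246323, minus strand). ICAM1high libraries held 23.2, 21.9, 30.4 and 26.2 CPM and ICAM1low libraries 13.4, 7.83, 9.03 and 6.61 CPM, with no overlap. Means of 25.4 ± 3.77 and 9.21 ± 2.94 CPM (SD, n = 4) differed by 1.47 on the log2 scale (SE 0.24, adjusted p = 0.000845 by edgeR). Naip genes are related neighbours: 23.8% of the 75-base stretches of the principal Naip5 transcript also occur in other genes, chiefly Naip6, Naip3 and Naip1, so the division of reads from those stretches is uncertain. Naip6 also rose, by 3.11 on the log2 scale (SE 0.66, adjusted p = 0.00382 by edgeR), from 0.860 ± 0.638 CPM in ICAM1low, where 1 library held 0 counts, to 7.40 ± 2.33 CPM (SD, n = 4). Naip2, a receptor for a secretion-system protein, stood at 51.3 ± 3.22 against 42.5 ± 7.74 CPM and was not called (log2 fold change 0.27, SE 0.16, adjusted p = 0.208 by edgeR). Naip1 held 24 counts over the ICAM1high libraries and 6 over the ICAM1low libraries, and was not tested. The macrophage markers given above were higher in the same libraries as Nlrc4 and Naip5.

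Nlrp3 moved the other way and was lower in ICAM1high (11:59541568-59566956, plus strand). Its level was 647, 945, 1188 and 1190.0 CPM in ICAM1high against 2579.8, 1781, 2503 and 1437 CPM in ICAM1low. The lowest ICAM1low library, replicate 4, still exceeded every ICAM1high library. Means of 992 ± 258 and 2075 ± 557 CPM (SD, n = 4) differed by -1.06 on the log2 scale (SE 0.25, adjusted p = 0.00656 by edgeR). With library totals alone the value was -0.38 (adjusted p = 0.247 by edgeR), so the call for Nlrp3 was lost under that scaling.

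Aim2, the DNA sensor, was the single member that was not called (1:173350879-173466040, plus strand). ICAM1high libraries held 81.4, 95.4, 106 and 107 CPM and ICAM1low libraries 132, 99.2, 96.9 and 70.5 CPM. The ICAM1high values all fell inside the ICAM1low range. Its log2 fold change was -0.03 (SE 0.20, adjusted p = 0.909 by edgeR), and with library totals alone it was 0.64 (adjusted p = 0.0356), where Aim2 was called higher.

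Pycard, which encodes the adaptor ASC, rose in ICAM1high (7:127989708-127993867, minus strand). Its level was 12.01, 7.88, 6.27 and 7.40 CPM in ICAM1high and 1.10, 1.77, 2.01 and 4.99 CPM in ICAM1low. The fractions did not overlap, and ICAM1low replicate 4 was the nearest to the ICAM1high range. The fitted log2 fold change was 1.76 (SE 0.43, adjusted p = 0.00829 by edgeR). With a library left out it ranged from 1.49 (without ICAM1high replicate 1) to 2.35 (without ICAM1low replicate 4). No source used here states whether counting used strand. On the opposite strand Gm45205 overlaps 599 bases of Pycard and held 11.6% as many counts, with a log2 fold change of 0.31 (adjusted p = 0.842 by edgeR), and reads of the pair may not be separable.

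**Figure D2:**
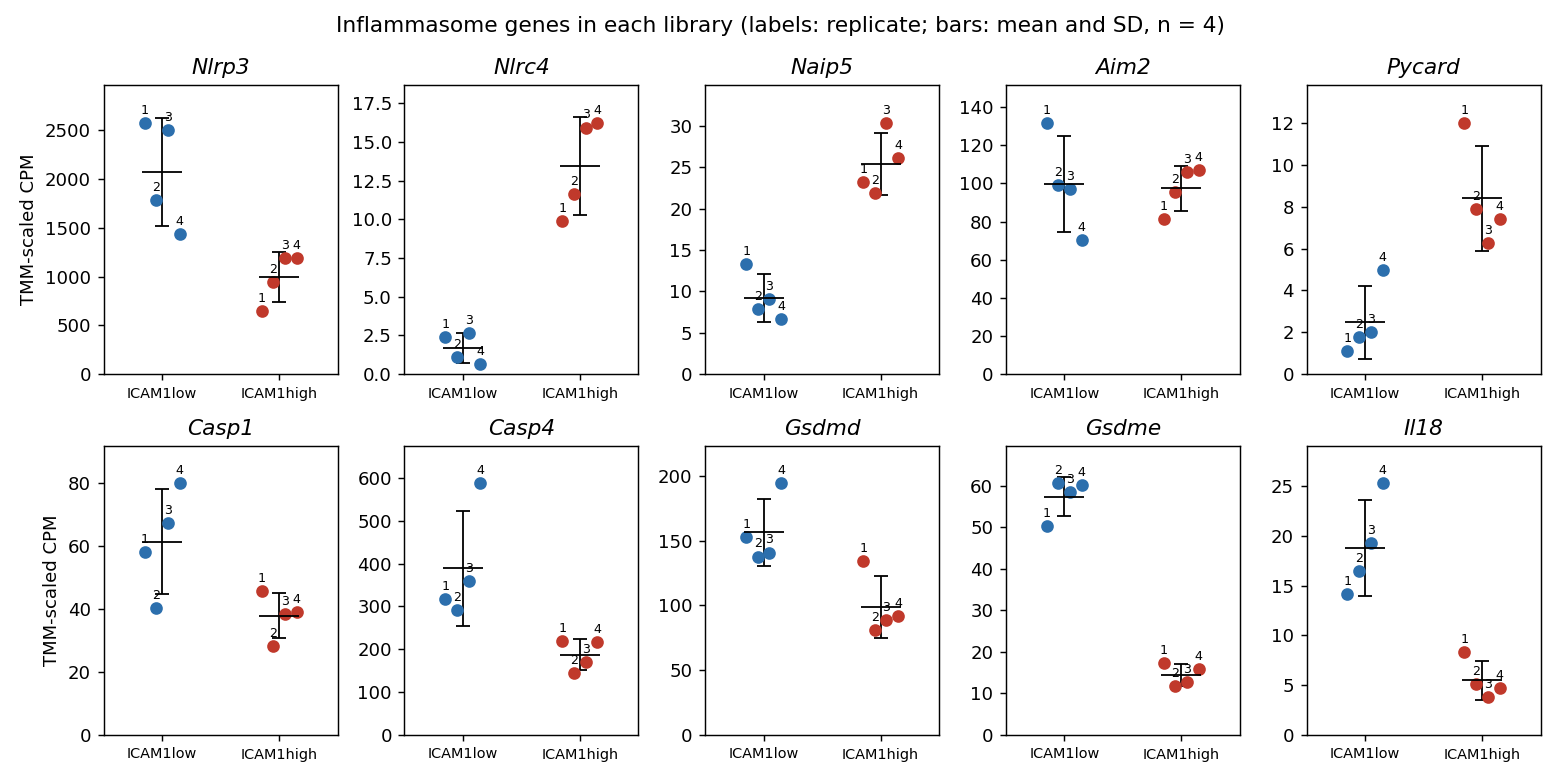
CPM of the 10 genes in each of the 8 libraries, on linear axes that start at 0; bars give the mean and SD of each fraction (n = 4) and numbers mark replicates. The points of the fractions are apart for 8 genes, and overlap for Aim2 and Casp1.

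Promoter sequences are shown for Nlrc4, Naip5 and Pycard, the genes that rose, for Aim2 and Naip2, which were not called, and for Casp4, which fell, because they hold matches to the motifs searched. They come from the RefSeq promoter table of build GRCm38.p6, which holds 250 bases before and 50 after a start site and has an entry for 9 of the 10 genes. Each stretch runs 5′ to 3′ on the gene's strand and ends at the last base before the start site or before an annotated exon of a protein-coding gene. Capitals mark matches to AGGAAGT (the core bound by PU.1, a myeloid transcription factor), TTNNGCAA (C/EBP) or the NF-kB motif, read on either strand.
Nlrc4 chr17:74459143-74459358, minus strand: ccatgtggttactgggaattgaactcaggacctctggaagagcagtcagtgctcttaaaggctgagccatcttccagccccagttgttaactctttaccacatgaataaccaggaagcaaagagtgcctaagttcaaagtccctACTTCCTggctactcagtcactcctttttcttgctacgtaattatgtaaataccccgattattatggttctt
Naip5 chr13:100247337-100247586, minus strand: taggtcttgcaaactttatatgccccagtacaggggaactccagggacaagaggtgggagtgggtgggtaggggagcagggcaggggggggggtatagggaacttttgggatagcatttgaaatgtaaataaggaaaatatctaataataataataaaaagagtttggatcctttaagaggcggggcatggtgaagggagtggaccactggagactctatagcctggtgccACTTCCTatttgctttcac
Naip2 chr13:100202123-100202372, minus strand: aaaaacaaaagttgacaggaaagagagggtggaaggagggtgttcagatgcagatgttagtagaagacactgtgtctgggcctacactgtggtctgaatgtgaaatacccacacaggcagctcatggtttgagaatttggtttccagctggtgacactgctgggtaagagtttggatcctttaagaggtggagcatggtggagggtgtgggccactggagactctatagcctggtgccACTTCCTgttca
Pycard chr7:127993868-127994117, minus strand: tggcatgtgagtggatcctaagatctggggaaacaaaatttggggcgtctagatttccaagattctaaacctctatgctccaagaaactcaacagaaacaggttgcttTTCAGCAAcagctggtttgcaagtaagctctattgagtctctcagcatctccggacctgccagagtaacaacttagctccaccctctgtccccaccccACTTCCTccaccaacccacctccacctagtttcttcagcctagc
Aim2 chr1:173420354-173420570, plus strand: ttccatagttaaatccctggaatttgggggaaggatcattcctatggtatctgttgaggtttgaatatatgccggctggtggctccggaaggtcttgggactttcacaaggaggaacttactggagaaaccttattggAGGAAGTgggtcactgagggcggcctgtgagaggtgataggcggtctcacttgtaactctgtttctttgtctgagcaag
Casp4 chr9:5308599-5308827, plus strand: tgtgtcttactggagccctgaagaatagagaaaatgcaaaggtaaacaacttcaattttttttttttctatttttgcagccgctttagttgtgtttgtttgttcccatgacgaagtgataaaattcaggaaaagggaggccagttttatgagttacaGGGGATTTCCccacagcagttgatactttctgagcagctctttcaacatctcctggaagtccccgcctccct
Of all 32851 promoters in the table, 9.35% held AGGAAGT, 10.8% TTNNGCAA and 1.63% the NF-kB motif. AGGAAGT was found in Nlrc4 (2 matches, 1 of them in the first exon and not shown), Naip5, Pycard and Aim2, and not in Casp1, Casp4, Gsdme, Il18 or Nlrp3. Among these 9 genes it was thus present for the 3 that rose and also for Aim2, which was not called. The Naip relatives did not follow that split: Naip6, which rose, held no match to any motif searched, while Naip2, which was not called, held the match within a run of 34 bases shared with Naip5. TTNNGCAA occurred in Pycard and Nlrc4 (the Nlrc4 match lies partly in the first exon), and the NF-kB motif had 2 matches in the Casp4 window, 1 of them in the first exon and not shown. The core of the interferon-stimulated response element was found in 3.44% of promoters and in none of the 9. The RefSeq start of Naip5 lies 1013 bases beyond the deposited gene end. The Aim2 stretch lies inside the deposited gene, which begins at 173350879, so it is not the sequence before the start of the counted gene. A match is a description of letters and not a bound site.

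Casp1, the shared effector of the canonical inflammasomes, was lower in ICAM1high, and the call was fragile (9:5298517-5307265, plus strand). ICAM1high libraries held 45.8, 28.3, 38.2 and 39.0 CPM and ICAM1low libraries 57.9, 40.4, 67.3 and 79.8 CPM. The fractions overlapped, because ICAM1high replicate 1 lay above ICAM1low replicate 2. On the log2 scale the change was -0.70 (SE 0.23, adjusted p = 0.0296 by edgeR). It lost the call without ICAM1high replicate 2, 3 or 4 (adjusted p = 0.0895, 0.0651 and 0.0577) or ICAM1low replicate 3 or 4 (0.0740 and 0.0618), all by edgeR, and was 0.0011 with library totals alone.

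Casp4, next to Casp1 on chromosome 9, fell (9:5308828-5336783, plus strand). Its level was 219, 145, 169 and 216 CPM in ICAM1high against 317, 292, 358 and 587 CPM in ICAM1low, with no overlap. ICAM1low replicate 4 was the highest library, and without it the log2 fold change was -0.79 (adjusted p = 0.00599 by edgeR). With all libraries the log2 fold change was -1.05 (SE 0.24, adjusted p = 0.00594 by edgeR), from means of 187 ± 36.5 and 389 ± 135 CPM (SD, n = 4). It was -0.35 (adjusted p = 0.158) with library totals alone. Casp12, its neighbour in sequence, was not called (log2 fold change -0.60, adjusted p = 0.226 by edgeR).

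Gsdmd, the pore-forming substrate of both caspases, was lower in ICAM1high (15:75862327-75867408, plus strand). ICAM1high libraries held 134, 80.8, 88.7 and 92.1 CPM and ICAM1low libraries 153, 138, 141 and 194 CPM. The fractions were apart by a narrow margin, since ICAM1high replicate 1 lay just below ICAM1low replicate 2. Gsdmd changed by -0.66 on the log2 scale (SE 0.19, adjusted p = 0.0197 by edgeR). It lost the call without ICAM1high replicate 2, 3 or 4 (adjusted p = 0.0704, 0.0643 and 0.0549 by edgeR), and was 0.023 with library totals alone.

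Gsdme had the most negative fold change of the 10 (6:50188888-50263862, minus strand). Its level was 17.4, 11.7, 12.6 and 15.9 CPM in ICAM1high and 50.4, 60.6, 58.5 and 60.2 CPM in ICAM1low, with a wide gap between the fractions. Means of 14.4 ± 2.70 and 57.4 ± 4.77 CPM (SD, n = 4) differed by -2.0 on the log2 scale (SE 0.17, adjusted p = 1.98e-05 by edgeR). The value was -1.32 (adjusted p = 0.000139) with library totals alone. Mpp6 overlaps 10052 bases of Gsdme on the opposite strand and held 42.2% as many counts, and it was not called (log2 fold change 0.44, adjusted p = 0.132 by edgeR). Epithelial tumour markers and neutrophil markers were lower in the same libraries.

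Il18, the cytokine matured by caspase-1, fell as well (9:50554827-50581840, plus strand). Its level was 8.31, 5.11, 3.76 and 4.73 CPM in ICAM1high and 14.2, 16.5, 19.3 and 25.3 CPM in ICAM1low. All ICAM1low libraries were above all ICAM1high libraries. Il18 changed by -1.77 on the log2 scale (SE 0.29, adjusted p = 0.000831 by edgeR), and -1.09 (adjusted p = 0.00461) with library totals alone. Bco2 overlaps Il18 by 355 bases on the opposite strand, held 16.3% as many counts and also fell, by 1.35 on the log2 scale (adjusted p = 0.0193 by edgeR). Il1b, the other main product of the pathway, fell from 21709 ± 2506 to 7387 ± 1575 CPM (SD, n = 4), or -1.56 on the log2 scale (SE 0.19, adjusted p = 0.000143 by edgeR).

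Library numbers in the labels fall into a first series, replicates 1 and 2 of each fraction, and a second, replicates 3 and 4. Within the first series, Pycard had a log2 fold change of 2.78 and Il18 of -1.19, and within the second series they had 0.90 and -2.45. Pycard and Nlrp3 were not called in the second series alone (adjusted p = 0.252 and 0.109), and Casp1, Casp4, Gsdmd and Naip5 were not called in the first series alone (adjusted p = 0.393, 0.113, 0.348 and 0.0523), all by edgeR. Aim2 was at 0.30 in the second series alone. The interaction of fraction and series, a test added after the data were seen, did not pass for any of the 10 genes (adjusted p from 0.417 by edgeR), and 2 of them, Pycard and Il18, had an unadjusted p under 0.05 (0.0290 and 0.0296).

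Per kilobase of the deposited gene length, as RPKM (CPM divided by the length in kilobases), Nlrp3 led in both fractions. In ICAM1low its level was 512 ± 137 RPKM (SD, n = 4), which ranked 133 of the 14051 genes, and in ICAM1high it was 245 ± 63.5 RPKM, ranking 150. Casp4 came next, at 105 ± 36.4 RPKM in ICAM1low and 50.5 ± 9.83 in ICAM1high, followed by Gsdmd, at 65.8 ± 10.96 and 41.6 ± 10.1 RPKM, and with this length the ranges of Casp4 and Gsdmd overlapped in both fractions. Casp1 and Aim2 followed and overlapped each other in both fractions, at 41.0 ± 11.1 and 28.5 ± 7.18 RPKM in ICAM1low and 25.3 ± 4.82 and 27.8 ± 3.39 RPKM in ICAM1high. Il18 was sixth, at 18.2 ± 4.66 RPKM in ICAM1low, where it overlapped Aim2, and at 5.31 ± 1.91 RPKM in ICAM1high, where it overlapped Naip5. The lower end of the order differed between the fractions. In ICAM1low it ran Gsdme (4.51 ± 0.375 RPKM), Naip5 (1.77 ± 0.564), Pycard (0.650 ± 0.454) and Nlrc4 (0.359 ± 0.209), and neighbours from Naip5 down overlapped. In ICAM1high it ran Naip5 (4.89 ± 0.725 RPKM), Nlrc4 (2.84 ± 0.669), Pycard (2.21 ± 0.660) and Gsdme (1.13 ± 0.212), and of these neighbours Nlrc4 and Pycard overlapped. The levels of Gsdme and Casp4 depended most on the length used. The deposited length of Gsdme is 12742 bases and its principal transcript in GENCODE M21 has 2502. With that transcript Gsdme stood at 22.95 RPKM in ICAM1low and 5.76 in ICAM1high, which made it sixth and seventh of the 10. For Casp4 the lengths are 3710 and 1435 bases, and with the principal transcript it stood at 271 RPKM in ICAM1low and 130.4 in ICAM1high. With principal transcripts Casp4 no longer overlapped Gsdmd in either fraction, and in ICAM1low its highest library, at 409 RPKM, exceeded the lowest Nlrp3 library, at 357 RPKM.

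**Figure D3:**
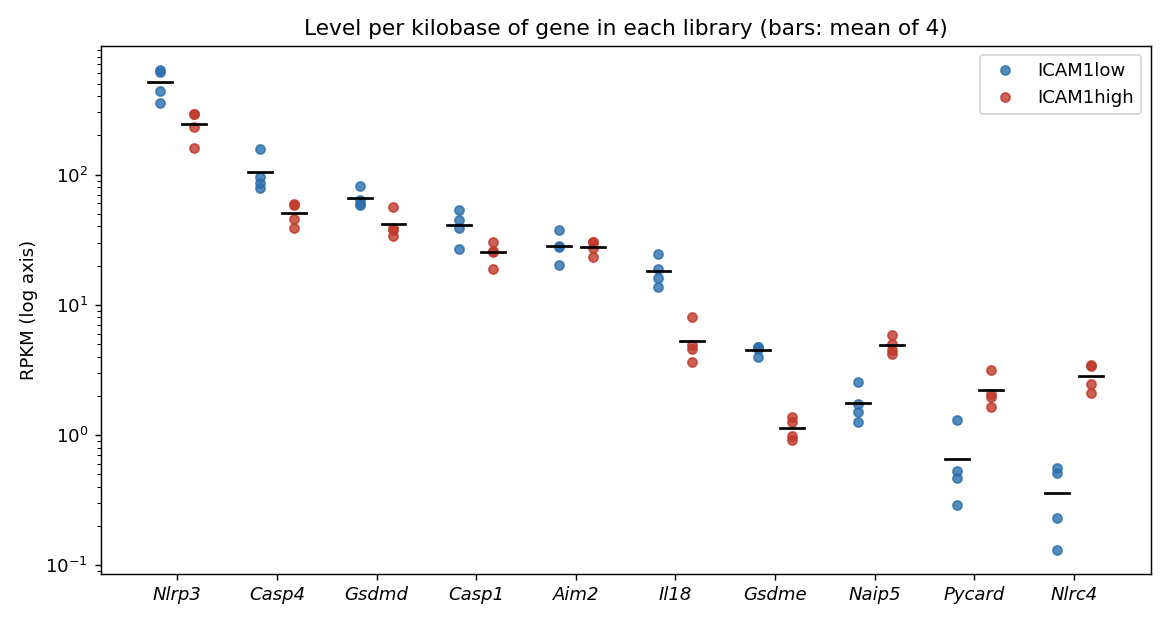
RPKM of each gene, with the deposited gene length, on a log axis in the ICAM1high and ICAM1low libraries, with the mean of each fraction, ordered by the ICAM1low mean. With this length Nlrp3 lies above the other 9 genes in both fractions, and Nlrc4, Pycard and Naip5 are near the bottom in ICAM1low.

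Ratios of a pair of genes within a library do not depend on the scaling of libraries. Their levels rest on the deposited gene lengths, most so for Gsdme and Casp4, whereas the differences between fractions do not depend on length. Per kilobase, the log2 ratio of Nlrc4 to Nlrp3 was -6.42 ± 0.128 in ICAM1high and -10.7 ± 0.587 in ICAM1low (SD, n = 4; exact two-sided permutation p = 0.0286, the smallest that 4 against 4 can give, adjusted p = 0.0476 over 5 ratios). The ratio of Pycard to Nlrp3 was -6.79 ± 0.806 against -9.81 ± 1.27 (SD, n = 4), with the same exact p and adjusted p. The ratio of Gsdmd to Gsdme was 5.19 ± 0.173 against 3.86 ± 0.247 (SD, n = 4), again with the same exact p and adjusted p. All 3 ratios were higher in every ICAM1high library than in every ICAM1low library. For the ratios to Nlrp3 this was fixed beforehand, because Nlrc4 and Pycard were higher and Nlrp3 lower without overlap of the fractions. Their p-values therefore add no separate support. The adjusted p of Gsdmd over Gsdme leans on them too, because the adjustment counts the ratios to Nlrp3, which share the smallest p. It is thus no firm call, and the exact p and the values of each library are what stand for that pair. The ratio of Casp1 to Casp4 was -0.997 ± 0.137 against -1.34 ± 0.251 (SD, n = 4; exact permutation p = 0.0857, adjusted p = 0.107). The ratio of Il18 to Il1b was -9.55 ± 0.307 against -9.31 ± 0.236 (SD, n = 4; exact permutation p = 0.314, adjusted p = 0.314). These last ratios did not pass, which does not show that the members of each pair moved alike.

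**Figure D4:**
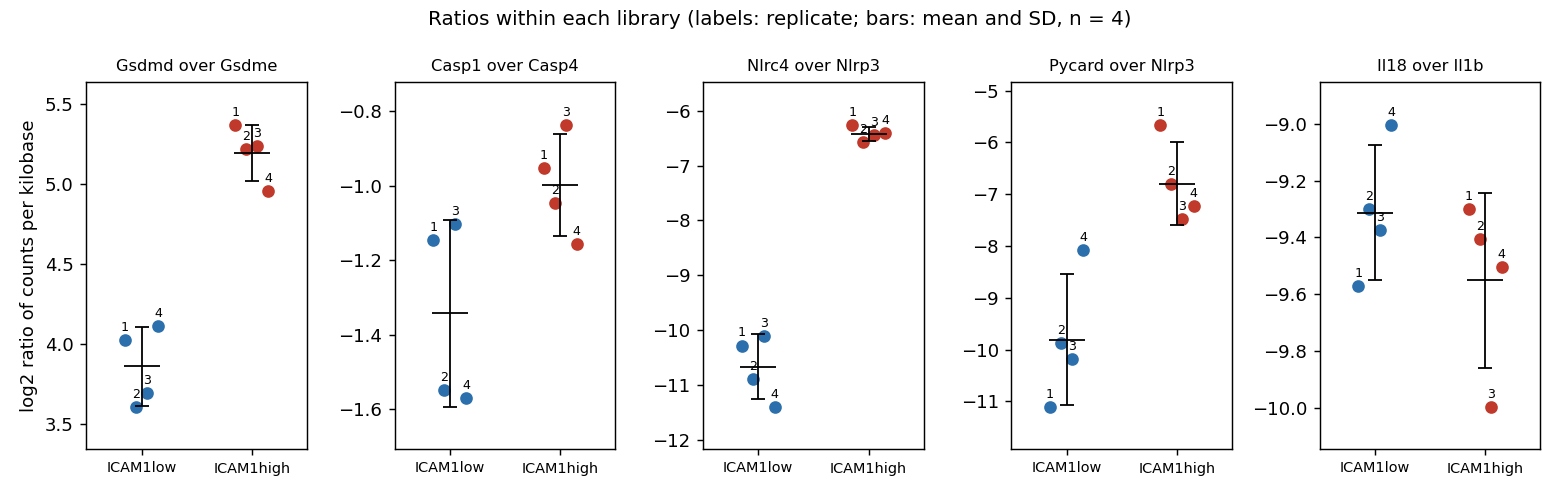
Log2 ratio of 5 gene pairs per kilobase of the deposited gene length in each library, with the mean and SD of each fraction (n = 4). Numbers mark replicates. The fractions are apart for Nlrc4 over Nlrp3, Pycard over Nlrp3 and Gsdmd over Gsdme, and overlap for the other pairs.

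Other genes of the pathway were read from 7 lists of 98 genes, of which 82 were tested. Among these, 17 were higher and 36 lower in ICAM1high, 64.6% called in all beside 42.1% over all genes, with a median log2 fold change of -0.45. With library totals alone 28 were higher and 13 lower, and the split by direction moved with the choice of scaling. Over all genes that scaling called 48.5% higher and 5.97% lower, with a median of 0.76, and the list counts below are to be read beside these shares. With TMM, 69.2%, 62.5%, 53.8%, 77.8%, 50%, 50% and 80% of the 7 lists were called, in the order given below. The lowest of these lie near the share over all genes.

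Of the other sensors and NLR proteins, 4 of 13 tested rose and 5 fell (median -0.35), and 5 rose and 2 fell with library totals alone (median 0.31). Ifi204, a DNA sensor of the interferon-inducible family that includes AIM2, rose by a log2 fold change of 1.95. Nlrp12, a neutrophil-rich NLR protein, and Mefv, which encodes pyrin, fell by 1.96 and 1.32. Nlrp1b was not called (log2 fold change -0.35, adjusted p = 0.265 by edgeR), and Nlrp1a held 5 counts in ICAM1high and 0 in ICAM1low. Of 16 cofactors and activators, 5 rose and 5 fell (median -0.10). With library totals alone 8 rose and 0 fell (median 0.58), beside 48.5% and 5.97% of all genes (median 0.76). The potassium channel gene Kcnk6 (1.41), the deubiquitinase Brcc3 (1.21) and the ATP-gated channel P2rx7 (2.47), which promote NLRP3 activation, rose. Nek7 (0.92) and Panx1 (1.97) were the others that rose. Syk (-1.09) and Card9 (-1.03), which signal from pattern receptors, Gbp2 (-0.90), Txnip (-0.58) and Ripk1 (-0.48) were the 5 that fell. The genes from Nek7 to Ripk1 were named here after their values were seen. With library totals alone Txnip (0.10) and Ripk1 (0.20) turned sign. Of 13 tested inhibitors, 2 rose and 5 fell (median -0.53), against 3 and 1 with library totals alone (median 0.16), with Birc3 at -1.26, Trim30a at -1.03 and Serpinb9 at 1.44.

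Of 9 interleukin 1 family genes and receptors tested, 7 fell and 0 rose (median -1.56). The decoy receptor Il1r2 stood at -1.73 and Il36g, listed as Il1f9, at -2.06, and with library totals alone 1 was higher and 6 lower (median -0.87). Among 8 apoptotic caspases and their adaptors, 3 rose and 1 fell (median 0.32), against 6 and 0 with library totals alone (median 1.00). Fadd, which encodes an adaptor of death receptors, rose by 1.78. Of 17 other gasdermin, granule protease, rupture and repair genes, 8 were tested, 0 rose and 4 fell (median -0.83), against 1 and 1 with library totals alone (median -0.16). The ESCRT genes Vps4b and Chmp4b, which repair gasdermin pores, stood at -1.05 and -1.32, and Ninj1, which carries out membrane rupture, at -1.18. Vps4b, Ninj1 and the inhibitor Trim30a were not called with library totals alone (adjusted p = 0.0747, 0.110 and 0.142 by edgeR). Of 15 priming genes, 3 rose and 9 fell (median -0.55), against 4 and 3 with library totals alone (median 0.14). Tlr2 and Cd14, which sense bacterial lipids, stood at -1.38 and -1.72, whereas Irf8, a transcription factor of monocytes and macrophages that is known to drive Naip and Nlrc4 transcription, rose by 3.84 from 6.64 ± 1.26 to 95.4 ± 15.3 CPM (SD, n = 4; adjusted p = 1.28e-06 by edgeR). Spi1, which encodes PU.1 and was named once its value was known, stood at -1.06 (adjusted p = 0.00717 by edgeR), and at -0.37 (adjusted p = 0.157) with library totals alone.

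**Figure D5:**
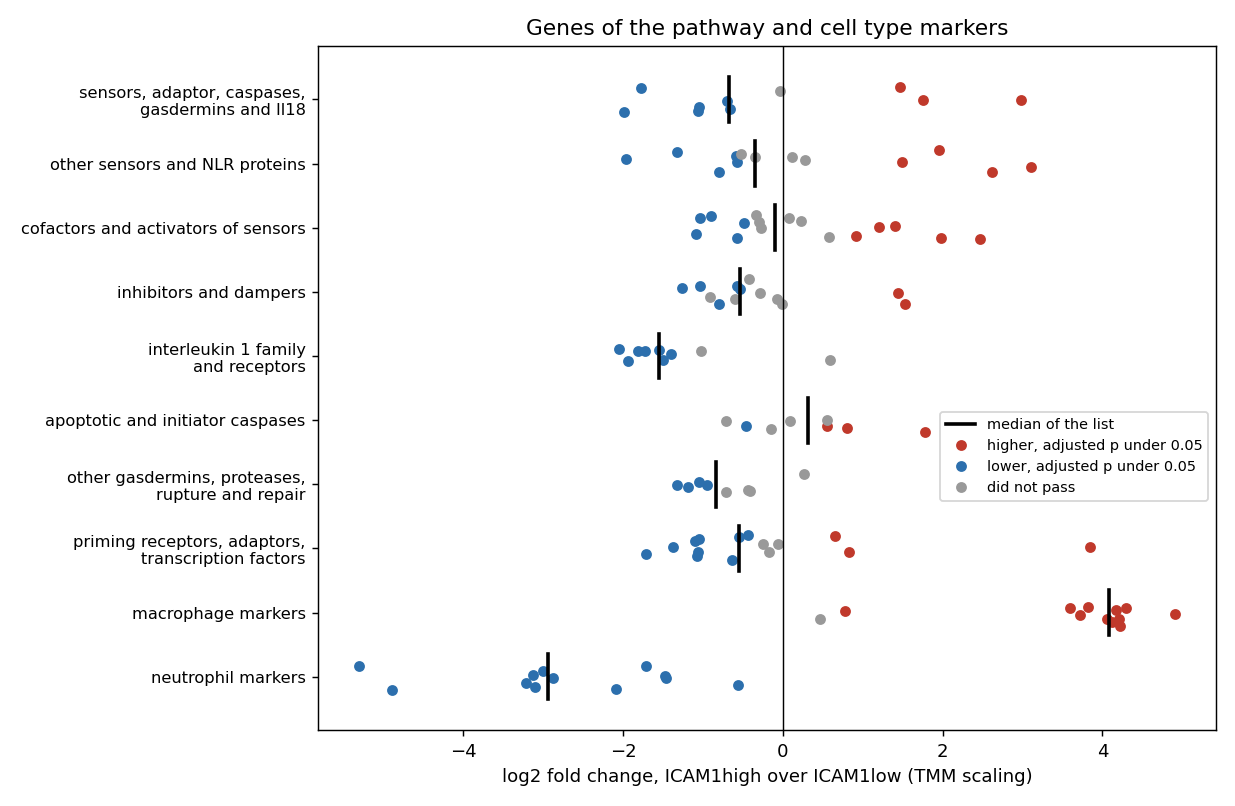
Log2 fold change, ICAM1high over ICAM1low, of the genes tested in each list; colours mark the call and the black bar is the list's median. The interleukin 1 family lies almost wholly left of 0, macrophage markers lie right of it and neutrophil markers left.

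The genes whose pattern over the 8 libraries was most like Nlrc4, by the root mean square difference of centred log2 CPM among 7576 genes, were Fyn (0.22), Tep1 (0.28) and P2rx7 (0.32). The genes most like Gsdme among 7575 were Tmem154 (0.12), Glipr2 (0.13) and Rufy4 (0.13).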

How the data were processed

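Libraries were made from total RNA with an mRNA kit, per the labels' protocols, and, per the submitters' processing notes, HISAT2 and the mm10 genome were used; the version, counting tool, annotation release and strand setting are not given in the sources used. The authors deposited whole-number read counts per gene with gene lengths, an other quantity used for RPKM. All 10 genes had the same position in GENCODE M21. Genes were filtered with filterByExpr (minimum count 10), and fractions were compared with edgeR 4.0.16 (TMM, quasi-likelihood F test, Benjamini-Hochberg over 14051 genes, threshold 0.05) in R 4.3.3. The members and lists were chosen with earlier results of these data known. All 10 members are named, and of each list the up to 3 genes with the smallest p and an average log2 CPM of at least 1, plus relatives of the members; some genes that this rule picks are not reported here. Alternatives were library totals, DESeq2 1.42.0, limma-voom 3.58.1, filters, a replicate block, library series, the transcript length (added after seeing the data) and leaving out libraries. Replicate pairs of a fraction differed by 12.4 to 212 chi-square per degree of freedom, so none was a repeat deposit. The procedure was run on simulated counts in which few genes changed, in both directions, so that run does not bear on the choice of scaling here. Floors cover counting error only.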

Additional observations from a re-analysis of the deposited data

How the results depend on the processing

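Members lower numbered 6, but 2 with library totals alone and 3 in the first library series (replicates 1 and 2) alone (4 to 6 with a library left out); members higher were 3 with any library left out. Pathway genes higher, 17, became 28 with library totals, 11 in the first series and 9 in the second (replicates 3 and 4) (14 to 17 with a library left out). Pathway genes lower, 36, became 13 with library totals and 17 in the first series (27 to 37). Calls over all genes moved too, from 3172 higher and 2748 lower to 6818 and 839 with library totals. They were 1708 and 1416 in the first series and 1658 and 1604 in the second, so fewer calls in a series were not particular to these genes. Log2 fold changes turned sign for Aim2 (0.64 with library totals, 0.30 in the second series, -0.17 to 0.13 with a library left out), Casp1 (0.0011 with library totals) and Gsdmd (0.023 with library totals). With the replicate block, same-numbered libraries being paired, the differences in log2 ratio were 1.33 for Gsdmd over Gsdme, 4.24 for Nlrc4 over Nlrp3 and 3.02 for Pycard over Nlrp3, each with an exact sign-flip adjusted p of 0.156, where the smallest raw p that 4 pairs allow is 0.125; in edgeR the block kept all 9 calls of members. The numbers were not taken as pairs in the main comparison because the labels state no pairing. Same-numbered libraries correlated at -0.57, 0.21, 0.18 and -0.30 after removal of the fraction means. These values cannot decide whether they share a tumour. With a library left out, the ratio differences ranged from 1.25 to 1.42, 4.00 to 4.43 and 2.59 to 3.59, and the adjusted p reached 0.0714, 0.0714 and 0.0952 without an ICAM1high library. Pycard over Nlrp3 was 4.26 in the first series and 1.78 in the second, and Il18 over Il1b, -0.24 in all, was 0.083 and -0.56 there (-0.32 to -0.09 with a library left out). The cause of these changes was not tested. Depth limits Nlrc4 and Pycard most, at 10 and 15 counts in their lowest libraries.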
